A study of Mus musculus with 6 samples.

Results

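The genes that encode the subunits of the oxidative phosphorylation (OXPHOS) enzymes in the nuclear genome were followed in RNA-seq libraries of mouse brain. The members were chosen by symbol alone, as the rows named for NADH dehydrogenase subunits (Nduf followed by a, b, c, s or v), succinate dehydrogenase (Sdh), the cytochrome bc1 complex (Uqcr and Cyc1), cytochrome c oxidase (Cox4 to Cox8) and ATP synthase (Atp5), with symbols ending in -ps left out. They were 86 rows, with 85 symbols, among the 52390 genes of the deposited count table. The symbol Atp5o was carried by 2 rows, Cox6c2 is annotated as a processed pseudogene, and the row named Ndufb1 is annotated as a long non-coding RNA. The filter on low counts kept 82 of the 86 rows among the 21844 genes tested. The other 4 were Cox7a1, Cox8b, Cox8c and the second Atp5o row.

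Libraries came from 3 control mice and 3 AP1AR-DT OE mice, all wild type male C57BL/6 J mice that were injected in the medial prefrontal cortex with a recombinant adeno-associated virus as young adults. In AP1AR-DT OE mice the virus carried the human lncRNA AP1AR-DT (AC109347.1) driven in neurons by the human synapsin I promoter, and in control mice it was an empty vector, so both groups had received virus. The labels give the tissue as brain, the methods describe cortical tissue, and the study's results name the medial prefrontal cortex as the source of the RNA. AP1AR-DT has no row in the mouse table, so its level could not check the labels. The AP1AR-DT OE columns name the group but not the mouse and the letters A, B and C stand for them in column order. The comparison asks which genes differ in level when AP1AR-DT is overexpressed in neurons. Values by mouse are given in the order control 1, 2, 3 and OE A, B, C.

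Oxidative phosphorylation is the last stage of respiration in the inner mitochondrial membrane. Complexes I and II pass electrons from NADH and succinate to ubiquinone, complex III passes them to cytochrome c, and complex IV passes them to oxygen. Complexes I, III and IV pump protons, and ATP synthase, complex V, uses the proton gradient to make ATP. Most subunits are encoded in the nucleus and imported, while a small set is encoded by mitochondrial DNA, so that each complex except II is built from both genomes. Neurons depend on this pathway for the ATP that ion pumping and synaptic transmission use.

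Library totals ranged from 42061721 to 54668294 counts. Mitochondrial genes took between 7.2% and 9.86% of a control library and between 5.75% and 6.80% of an AP1AR-DT OE library. Markers of brain regions set single mice apart. Slc17a7, a vesicular glutamate transporter of cortical excitatory neurons, had 28.2, 3.86 and 233 normalized CPM in the control mice and 231, 463 and 87.2 in the AP1AR-DT OE mice, where CPM are counts scaled to 1 library size with edgeR's TMM factors. A list of 6 choroid plexus markers, led by Ttr, summed to 3887 in control 3 and to between 45.0 and 61.0 in the other mice, with Kcnj13 and Slc4a5 at 0 in controls 1 and 2 and in OE A. A list of 5 hypothalamic markers summed to 470.0 in control 2, 64.7 in control 3 and between 0.983 and 2.88 in the other mice, with Oxt at 0 in control 1 and OE B. A list of 5 oligodendrocyte markers summed to 8956 in control 3 and to between 4310.0 and 5565 in the other mice. Of 4 striatal markers, Ppp1r1b was highest in OE A (711) and lowest in control 2 (57.6). The part of tissue composition in the values below was not tested beyond leaving out each mouse in turn. In bulk tissue, fewer cells of a type and less RNA per cell cannot be told apart.

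Among the 82 subunit genes tested, 57 had a Log2FC above 0 and 25 below 0, where Log2FC is the log2 ratio of AP1AR-DT OE over control. With edgeR's quasi-likelihood test, at P under 0.05 and |Log2FC| above 0.32, the thresholds of the study, 6 subunit genes were higher in AP1AR-DT OE mice (7.32%) and 0 were lower. DESeq2 and limma-voom each called 8 higher and 0 lower, beside 5.94% and 5.39% of all genes higher. By edgeR, 5.10% of all genes tested were higher and 7.15% lower at these thresholds. The 6 were Cox6b1, Ndufa3, Uqcr10, Uqcrq, Atp5g3 and Ndufb9. P means the unadjusted value, unless named as adjusted. With no limit on size, 12 subunit genes (14.6%) had P under 0.05, all 12 with higher values in AP1AR-DT OE mice, where 6.74% of all genes were higher and 8.38% lower by that rule. The median Log2FC was 0.13 over the subunit genes and -0.014 over all genes tested. After Benjamini-Hochberg adjustment over all genes edgeR left 0 subunit genes under 0.05, with a lowest adjusted P of 0.295 that many genes shared, where 0.0275% of all genes passed. DESeq2 gave 1, Cox6b1, with an adjusted P of 0.0422, against up to 0.661 in the other fits. Of all 21844 genes, 450 passed by DESeq2.

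In 17 of the 82 genes all AP1AR-DT OE mice were above all control mice, and in 1, Ndufb3, they were all below. The shares among all genes tested were 10.4% above and 12%, or 2620 of 21844 genes, below. An exact permutation test of a single gene gives P = 0.1 in such cases, the smallest that 3 mice against 3 allow. Just outside the P threshold were Cox6c (Log2FC 2.64, adjusted P = 0.340) and Ndufb6 (Log2FC 0.45, adjusted P = 0.340), and just inside it were Atp5d (Log2FC 0.30, adjusted P = 0.324) and Uqcrc1 (Log2FC 0.21, adjusted P = 0.322). Ndufv1, with a Log2FC of 0.31, lay just under the size threshold and Ndufb9, with 0.34, just above it.

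**Figure D1:**
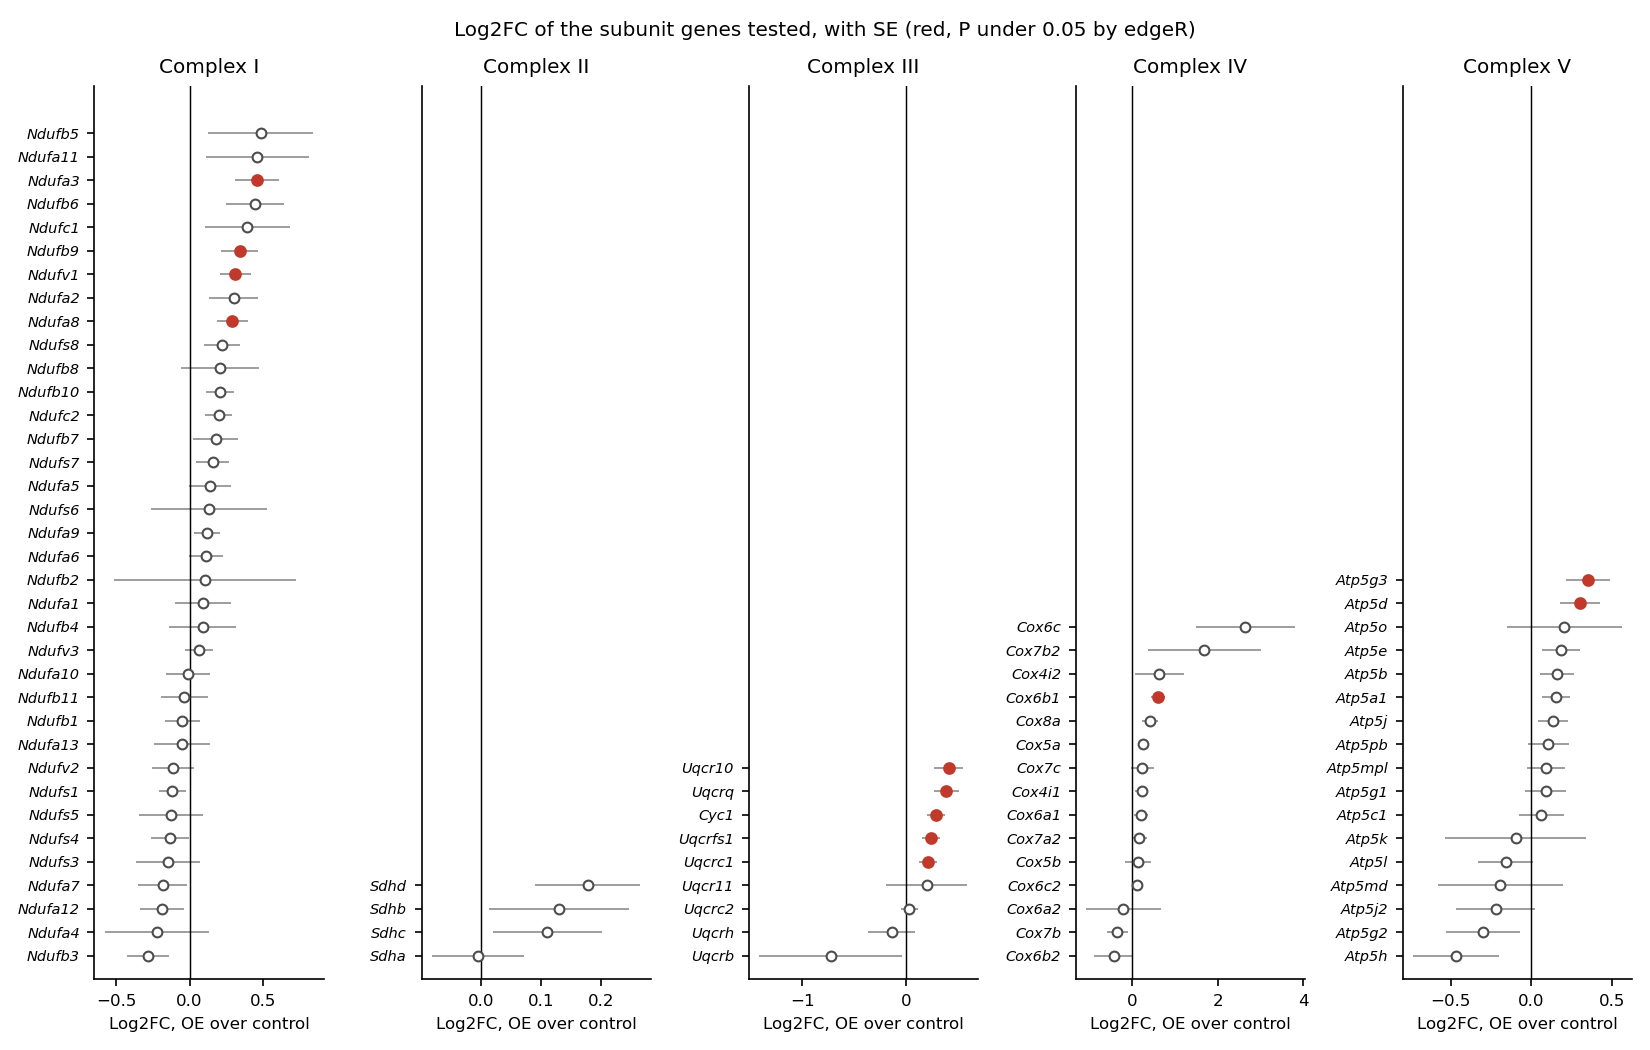
Log2FC of 81 of the 82 subunit genes tested, AP1AR-DT OE over control on the log2 scale, in 1 panel per complex with genes in order of Log2FC. Points are edgeR estimates, bars are 1 SE, filled red points mark the 12 genes with P under 0.05, and the scale of the horizontal axis differs between panels. All red points lie to the right of 0, and 5 of them are in complex III.

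The promoters were searched for the letters of 4 factors known to act on nuclear mitochondrial genes, on both strands, each motif on its own so that shared letters count for each. RefSeq promoters on GRCm38.p6, from 250 bases before to 50 after the start of the gene, were matched by symbol for 68 of the 85 members, with 73 promoters. The NRF1 motif GCGCNTGCG was found in 25 of the 73 (34.2%) and in 6.31% of all 32851 promoters. The ETS motif CCGGAAG, as for GABP, was in 23.3% and 8.86%, the YY1 motif AAGATGGCG in 9.59% and 1.40%, and the ERR motif TCAAGGTCA in 2.74% and 0.423%. The median GC content was 57.7% in the subunit promoters and 52.7% in all promoters. The members with an NRF1 match had a median Log2FC of 0.14 and the others 0.13, with P under 0.05 in 5 of 24 and 4 of 42 genes tested. All of these were higher in AP1AR-DT OE mice, beside 6.74% of all genes. That share was not counted over all genes with and without the motif, so the 2 counts say nothing about NRF1. A match is a stretch of letters and not a measured site.

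Promoters are shown for the 4 of the 6 genes called higher that had an entry, to give the letters beside the start of genes whose values differed between groups. They run 5′ to 3′, with matches in capitals. In Cox6b1 the capitals are an ETS match at position -28, counted from 0 at the start of the gene. In Uqcr10 they are an NRF1 match at position 1. In Atp5g3 they are an ERR match at position -52 and an NRF1 match at position 12. In Ndufa3 none of the 4 motifs was found in this window.
Cox6b1 promoter (chr7:30626065-30626364, GRCm38.p6, minus strand): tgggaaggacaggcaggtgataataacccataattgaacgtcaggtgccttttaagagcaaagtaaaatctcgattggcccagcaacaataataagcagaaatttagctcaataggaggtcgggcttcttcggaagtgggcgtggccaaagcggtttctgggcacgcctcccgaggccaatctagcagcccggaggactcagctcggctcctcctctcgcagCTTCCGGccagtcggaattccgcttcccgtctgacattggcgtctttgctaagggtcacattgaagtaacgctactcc
Uqcr10 promoter (chr11:4704295-4704594, GRCm38.p6, minus strand): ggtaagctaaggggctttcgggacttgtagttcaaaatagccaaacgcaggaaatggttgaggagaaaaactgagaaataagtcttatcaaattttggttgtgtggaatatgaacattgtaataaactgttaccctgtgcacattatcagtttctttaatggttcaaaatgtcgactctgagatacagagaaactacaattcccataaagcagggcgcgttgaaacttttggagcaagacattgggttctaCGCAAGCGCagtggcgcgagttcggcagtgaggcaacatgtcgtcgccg
Atp5g3 promoter (chr2:73911277-73911576, GRCm38.p6, minus strand): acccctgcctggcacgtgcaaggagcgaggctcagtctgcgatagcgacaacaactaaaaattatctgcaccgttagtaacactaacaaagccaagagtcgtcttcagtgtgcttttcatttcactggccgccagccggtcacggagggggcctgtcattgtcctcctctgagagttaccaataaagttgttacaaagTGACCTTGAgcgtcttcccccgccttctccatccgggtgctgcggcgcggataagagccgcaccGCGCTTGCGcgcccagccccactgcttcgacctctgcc
Ndufa3 promoter (chr7:3617123-3617422, GRCm38.p6, plus strand): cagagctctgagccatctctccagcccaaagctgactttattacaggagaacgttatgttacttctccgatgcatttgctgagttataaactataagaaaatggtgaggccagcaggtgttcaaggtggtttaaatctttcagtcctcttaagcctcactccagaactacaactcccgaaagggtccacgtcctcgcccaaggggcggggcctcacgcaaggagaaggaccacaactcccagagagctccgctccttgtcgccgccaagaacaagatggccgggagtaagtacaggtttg

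Complex I, NADH:ubiquinone oxidoreductase, had 37 genes tested. Of these, 4 (10.8%) had P under 0.05, all higher in AP1AR-DT OE mice, beside 6.74% of all genes. A Log2FC above 0 was found in 24, and the median was 0.11. Ndufa3, an accessory subunit, had 23.4, 22.2 and 23.2 normalized CPM in the control mice and 30.1, 38.3 and 26.3 in the AP1AR-DT OE mice. Its Log2FC was 0.46 (SE 0.15, adjusted P = 0.295 by edgeR), the means being 22.9 ± 0.607 and 31.6 ± 6.10 normalized CPM (SD, n = 3). The control values lay within a narrow range and all 3 AP1AR-DT OE values lay above it, with OE B highest. Ndufb9, an accessory subunit of the membrane arm, had 86.4, 72.1 and 81.7 normalized CPM in the control mice and 105, 113 and 86.7 in the AP1AR-DT OE mice. Its Log2FC was 0.34 (SE 0.13, adjusted P = 0.302 by edgeR). OE C was only slightly above control 1. Ndufv1, the flavoprotein that binds FMN and accepts electrons from NADH, had 92.2, 90.04 and 106 normalized CPM in the control mice and 123, 127 and 108 in the AP1AR-DT OE mice. Its Log2FC was 0.31 (SE 0.11, adjusted P = 0.295 by edgeR). Ndufa8, an accessory subunit of the intermembrane space side, had 59.2, 55.3 and 60.1 normalized CPM in the control mice and 71.8, 79.0 and 63.1 in the AP1AR-DT OE mice, and its Log2FC was 0.29 (SE 0.11, adjusted P = 0.303 by edgeR). The groups did not overlap in any of these 4 genes, and in each OE C was the lowest of the AP1AR-DT OE mice. After correction for GC content, P was above 0.05 for Ndufb9 (Log2FC 0.19), Ndufv1 (Log2FC 0.14) and Ndufa8 (Log2FC 0.16). Of the 6 fits without 1 mouse, Ndufa3 had P under 0.05 in 5, Ndufb9 in 3, and Ndufv1 and Ndufa8 in 2 each.

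Other core subunits of complex I carry the iron-sulfur clusters and line the ubiquinone site. Ndufs8 (Log2FC 0.22, adjusted P = 0.417) and Ndufs7 (Log2FC 0.16, adjusted P = 0.518) did not pass the test and had estimates above 0 and overlapping groups. Ndufs1, the largest subunit, had 77.7, 75.1 and 79.2 normalized CPM in the control mice and 68.3, 68.0 and 77.5 in the AP1AR-DT OE mice, with an estimate below 0 (Log2FC -0.12, adjusted P = 0.557). Its groups overlapped through OE C, which lay among the control mice. Ndufv2 (Log2FC -0.11, adjusted P = 0.730) and Ndufs3 (Log2FC -0.15, adjusted P = 0.770) also had estimates below 0 and did not pass the test. The highest estimate of the complex was that of Ndufb5 (Log2FC 0.49, SE 0.36), a membrane arm subunit. It rested on control 3, with 14.6 normalized CPM against 36.0 to 50.3 in the other mice. The lowest was that of Ndufb3, with 7.64, 7.83 and 8.29 normalized CPM in the control mice and 6.60, 6.94 and 5.98 in the AP1AR-DT OE mice (Log2FC -0.28, adjusted P = 0.381).

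Complex II, succinate dehydrogenase, is also an enzyme of the TCA cycle and is encoded wholly in the nucleus. By edgeR, 0 of its 4 genes had P under 0.05. Sdhd, a membrane anchor, had 79.8, 79.6 and 88.1 normalized CPM in the control mice and 90.8, 98.0 and 91.0 in the AP1AR-DT OE mice, and its Log2FC was 0.18 (SE 0.087, adjusted P = 0.377 by edgeR). The groups did not overlap. Sdhb, the iron-sulfur subunit (Log2FC 0.13, adjusted P = 0.611), and Sdhc, the other anchor (Log2FC 0.11, adjusted P = 0.583), had overlapping groups. Sdha, the flavoprotein that oxidizes succinate, had 309, 304 and 295 normalized CPM in the control mice and 293, 307 and 306 in the AP1AR-DT OE mice, with a Log2FC of -0.0049 and the smallest SE of the subunit genes (0.077). Its 6 values lay between 293 and 309.

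Complex III, the cytochrome bc1 complex, had 5 of its 9 genes (55.6%) at P under 0.05, all higher in AP1AR-DT OE mice, beside 6.74% of all genes. Its median Log2FC was 0.21. Cyc1, cytochrome c1, had 128, 117 and 122 normalized CPM in the control mice and 156, 151 and 139 in the AP1AR-DT OE mice. Its Log2FC was 0.29 (SE 0.086, adjusted P = 0.295 by edgeR), the means being 122 ± 5.35 and 149 ± 8.87 normalized CPM (SD, n = 3). All 3 AP1AR-DT OE mice lay above all control mice, with OE C closest to them. Its P was under 0.05 without each mouse in turn, and above it after correction for GC content (Log2FC 0.019), the transcript having a GC content of 61.4%. Uqcrfs1, the Rieske iron-sulfur protein, had 159, 168 and 179 normalized CPM in the control mice and 201, 211 and 186 in the AP1AR-DT OE mice, and its Log2FC was 0.24 (SE 0.090, adjusted P = 0.305 by edgeR). Uqcrc1, a core protein, had 121, 122 and 124 normalized CPM in the control mice and 148, 148 and 129 in the AP1AR-DT OE mice, and its Log2FC was 0.21 (SE 0.088, adjusted P = 0.322 by edgeR). In both genes the groups did not overlap. Of the 6 fits without 1 mouse, Uqcrfs1 had P under 0.05 in 2 and Uqcrc1 in 1. Uqcrfs1 lost it after correction for transcript length, and Uqcrc1 after that and after correction for GC content. Uqcrc2, the other core protein, had a Log2FC of 0.031 (adjusted P = 0.877).

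Among the other subunits of complex III, Uqcrq, an accessory subunit, had 76.1, 68.0 and 79.4 normalized CPM in the control mice and 98.6, 109.6 and 84.4 in the AP1AR-DT OE mice, and its Log2FC was 0.39 (SE 0.12, adjusted P = 0.295 by edgeR). Uqcr10, a small membrane subunit, had 21.8, 22.8 and 27.4 normalized CPM in the control mice and 33.7, 34.5 and 27.6 in the AP1AR-DT OE mice, and its Log2FC was 0.41 (SE 0.14, adjusted P = 0.295 by edgeR). OE C, at 27.6, was just above control 3, at 27.4. The P of Uqcr10 was above 0.05 after correction for GC content (Log2FC 0.30) and with its pseudogene copy summed (Log2FC 0.21). Uqcrb had the lowest estimate of all subunit genes, Log2FC -0.73 with an SE of 0.69 and an adjusted P = 0.633. Its values were 7.01, 2.21 and 0.961 against 2.81, 2.06 and 1.26 normalized CPM, so that control 1 alone was above the other mice. Uqcrh (Log2FC -0.14, adjusted P = 0.795) and Uqcr11 (Log2FC 0.20, adjusted P = 0.831) had overlapping groups. Copies held over 90% of the counts of these 3 genes, and with the copies summed the Log2FC was -0.17 for Uqcrb (SE 0.11), 0.18 for Uqcrh (SE 0.092) and 0.53 for Uqcr11 (SE 0.14). Of the 6 fits without 1 mouse, Uqcrq had P under 0.05 in 5 and Uqcr10 in 2.

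Complex IV, cytochrome c oxidase, had 15 genes tested, of which 12 had a Log2FC above 0. Of the 15, 1 (6.67%), Cox6b1, had P under 0.05 with higher values, beside 6.74% of all genes. Cox6b1, a subunit on the intermembrane space side that takes part in dimer formation, had the smallest P of the subunit genes. It had 18.3, 18.01 and 22.3 normalized CPM in the control mice and 32.1, 32.6 and 24.3 in the AP1AR-DT OE mice. The means were 19.6 ± 2.41 and 29.7 ± 4.68 normalized CPM (SD, n = 3), and the Log2FC was 0.60 (SE 0.16, adjusted P = 0.295 by edgeR). Each AP1AR-DT OE mouse lay above each control mouse, by little for OE C against control 3 and by more for OE A and OE B. It had P under 0.05 in each of the other 9 planned fits and without each mouse, with a Log2FC between 0.53 and 0.74. The catalytic core of this enzyme is encoded by mitochondrial DNA.

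Other nuclear genes of complex IV had estimates above 0 but did not pass the test. Cox4i1, the regulatory subunit to which ATP binds, had 313, 249.7 and 285 normalized CPM in the control mice and 336, 379 and 271 in the AP1AR-DT OE mice (Log2FC 0.22, adjusted P = 0.498). Cox8a, a small membrane subunit, had 127, 89.1 and 109 normalized CPM in the control mice and 147, 171 and 113 in the AP1AR-DT OE mice (Log2FC 0.40, adjusted P = 0.351). In both genes OE B was highest, control 2 lowest and OE C among the control mice. Cox5a, a subunit of the matrix side that did not overlap between groups, had 29.3, 27.3 and 27.1 normalized CPM in the control mice and 30.0, 36.9 and 32.1 in the AP1AR-DT OE mice (Log2FC 0.24, adjusted P = 0.352). Cox5b had a Log2FC of 0.13 (adjusted P = 0.854). The highest estimate was that of Cox6c (Log2FC 2.64, SE 1.16), and it rested on OE C alone, with 6.94 normalized CPM against 0.280 to 0.615 in the other mice. With its copies summed, Cox6c had a Log2FC of 0.14. The lowest estimate was that of Cox6b2 (Log2FC -0.44, adjusted P = 0.659).

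Complex V, ATP synthase, had 17 genes tested, with 11 estimates above 0 and a median of 0.092. Atp5g3, 1 of 3 genes for the c subunit that forms the rotor ring, had 98.3, 113 and 131 normalized CPM in the control mice and 150.2, 159.8 and 128 in the AP1AR-DT OE mice. Its Log2FC was 0.36 (SE 0.14, adjusted P = 0.309 by edgeR), and the groups overlapped because control 3 was above OE C. Atp5d, the delta subunit of the central stalk, had 165, 154 and 189.5 normalized CPM in the control mice and 208, 236 and 184 in the AP1AR-DT OE mice. Its Log2FC was 0.30 (SE 0.13, adjusted P = 0.324 by edgeR), again with control 3 above OE C, and P was above 0.05 after correction for GC content (Log2FC 0.075) and for transcript length (Log2FC 0.24). Of the 6 fits without 1 mouse, both genes had P under 0.05 in 2. Atp5a1 and Atp5b, which encode the alpha and beta subunits of the catalytic head, were the subunit genes with the most counts in their own rows. Atp5a1 had 675, 637 and 695 normalized CPM in the control mice and 758, 766 and 713 in the AP1AR-DT OE mice, without overlap (Log2FC 0.16, adjusted P = 0.421). Atp5b had 704, 592 and 649 normalized CPM in the control mice and 721, 773 and 681 in the AP1AR-DT OE mice (Log2FC 0.16, adjusted P = 0.476), with control 1 above OE C. The lowest estimate was that of Atp5h, a subunit of the peripheral stalk (Log2FC -0.47, adjusted P = 0.428).

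**Figure D2:**
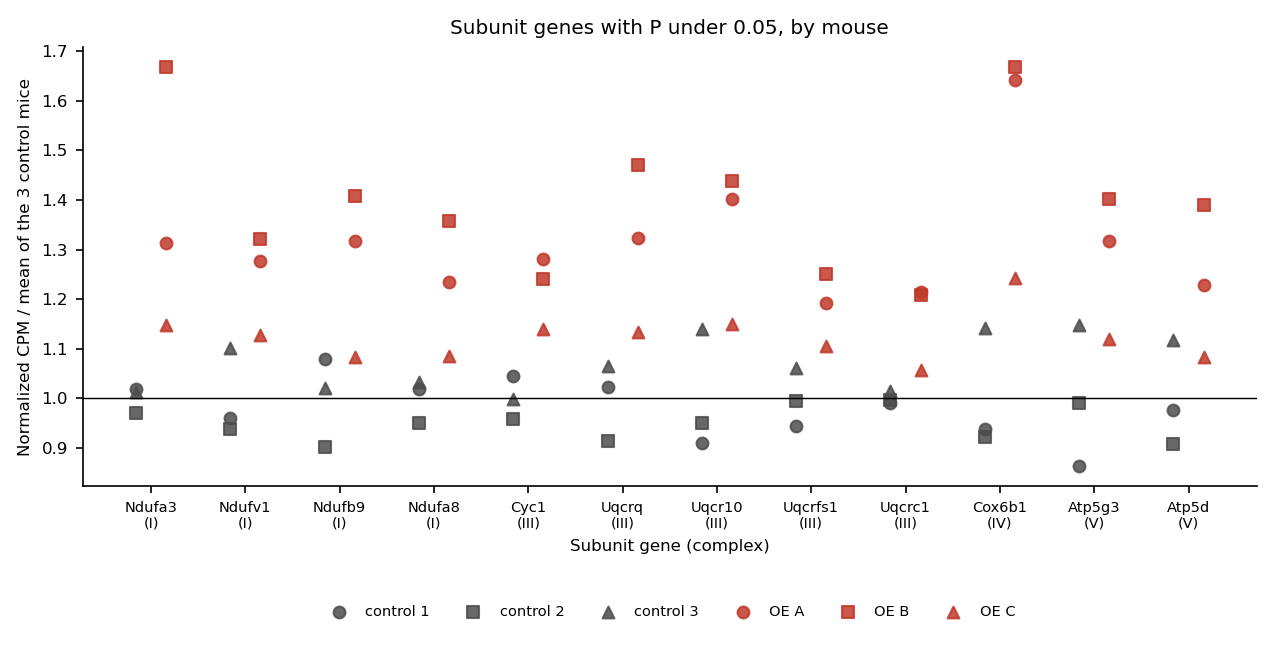
Normalized CPM of the 12 subunit genes with P under 0.05, each divided by the mean of the 3 control mice (vertical axis, ratio, not starting at 0), with 1 point per mouse. Gray symbols are control mice and red symbols AP1AR-DT OE mice. In each gene OE C (triangle) is the lowest of the AP1AR-DT OE mice, and in Atp5g3 and Atp5d it lies below control 3.

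The difference between groups came unevenly from the mice. The median deviation of the 82 subunit genes from the mean of the 6 mice, on the log2 scale, was 0.010, -0.14 and -0.075 in controls 1 to 3 and 0.12, 0.16 and -0.030 in OE A, B and C. For all genes tested, the medians were between 0.0013 and 0.022. OE A and OE B were above all control mice and OE C lay between controls 1 and 3. Complexes III and IV were the 2 complexes in which the median of OE C was above that of each control mouse. Without OE C, 18 subunit genes and 7.20% of all genes were called higher, and without OE B, 2 (Cox6b1 and Cox6c) and 2.63%. Without control 2 it was 3 subunit genes, without control 3 it was 11, and without OE A it was 4. The shares of all genes in those fits were 4.42%, 5.64% and 2.94%. In each of the fits named, the number called lower was 0 or 1, where 3.70% to 8.36% of all genes were.

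The 13 subunits encoded by mitochondrial DNA went the other way. Of these, 11 were called lower in AP1AR-DT OE mice, beside the 7.15% of all genes, and 0 higher, with a median Log2FC of -0.53. mt-Nd4l, a membrane subunit of complex I, had 946, 765 and 849 normalized CPM in the control mice and 555, 478 and 628 in the AP1AR-DT OE mice, and its Log2FC was -0.62 (SE 0.13, adjusted P = 0.295 by edgeR). mt-Atp8, of ATP synthase, had 1002, 555 and 657 normalized CPM in the control mice and 463, 407 and 498 in the AP1AR-DT OE mice, and its Log2FC was -0.69 (SE 0.22, adjusted P = 0.295 by edgeR). The 2 that were not called, mt-Co1 (Log2FC -0.23, adjusted P = 0.612) and mt-Co3 (Log2FC -0.20, adjusted P = 0.572), encode catalytic and core subunits of complex IV. Control 1 had the highest and OE B the lowest median of these genes, and OE B had the highest median of the nuclear subunit genes. Mitochondrial genes share 1 genome and their transcripts are cut from long precursors, so they are not independent of one another. With the mitochondrial genes left out of the counts, 7 nuclear subunit genes and 5.37% of all genes were called higher. The median Log2FC of the nuclear subunit genes was then 0.14.

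**Figure D3:**
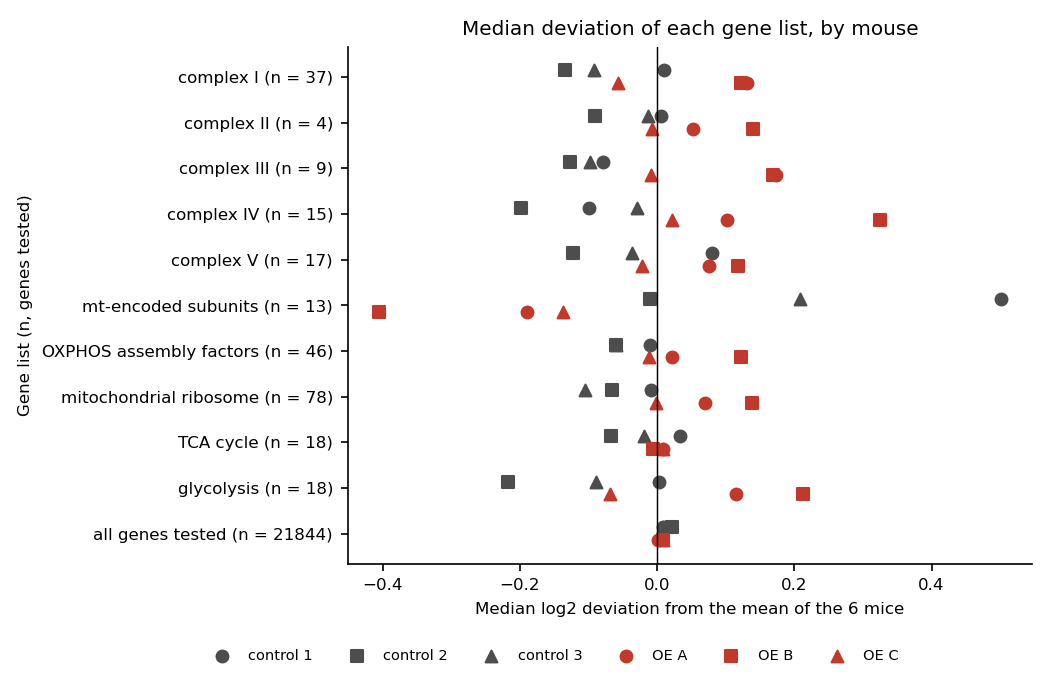
Median log2 deviation from the mean of the 6 mice (horizontal axis) for each list of genes, with the number of genes tested in parentheses and 1 point per mouse. Gray symbols are control mice and red symbols AP1AR-DT OE mice. The nuclear complexes have OE A and OE B on the right and OE C near 0, the mt-encoded subunits have all AP1AR-DT OE mice on the left, and the medians of all genes lie close to 0.

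Annotated pseudogenes alike in sequence to the subunit genes held many counts. The methods and the name of the deposited counts give Bowtie2, which does not split a read over an intron. The submitters' processing notes name TopHat2, which does. Many subunit genes have intronless copies of their mRNA elsewhere in the genome. BLAST of the transcripts of annotated pseudogenes against those of the subunit genes, at no less than 80% identity over 70% of the length, found 171 copies of 51 members, of which 71 were among the genes tested. Copies held over 50% of the counts of gene and copies together for 35 members and over 90% for 22. In total, the members' own rows held 5102 normalized CPM and the copies 4468, or 46.7% of the sum, with the row of Cox6c2 counted among the copies only. That share was between 45.9% and 47.2% in each mouse. The reads were not analysed here, so the aligner's part and the locus from which the counts of a copy came were not tested, and the levels of these members in their own rows are uncertain.

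Stretches of 80 coding bases, 40 on each side of an exon junction, are shown for gene and copy. For each gene the junction whose stretch differed least from the copy was taken, so these are the most alike stretches. In the gene an intron parts the 2 sides, while in the copy they lie next to each other. Atp5o is at chr16:91925214-91931687 and Gm5436 at chr12:84258331-84258973, both on the minus strand of GRCm38. Atp5h is at chr11:115415689-115419962 and Gm10250 at chr15:5120654-5121135, both on the minus strand of GRCm38. Cox6c is at chr15:35925886-35938246 and Cox6c2 at chr12:56373593-56373823, both on the minus strand of GRCm38. These 3 pairs were chosen after seeing the data, as those with the most counts in 1 copy among genes whose own row was nearly empty. The sequences are from GENCODE M21, run 5′ to 3′, and capitals mark the bases that differ within a pair, of which the Atp5h pair has none.
Atp5o, exons 4 and 5: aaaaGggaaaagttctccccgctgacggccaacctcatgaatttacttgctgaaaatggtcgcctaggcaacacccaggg
Gm5436: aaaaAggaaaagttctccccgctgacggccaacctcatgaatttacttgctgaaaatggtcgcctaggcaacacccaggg
Atp5h, exons 2 and 3: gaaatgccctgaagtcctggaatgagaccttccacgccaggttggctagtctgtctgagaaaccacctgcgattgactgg
Gm10250: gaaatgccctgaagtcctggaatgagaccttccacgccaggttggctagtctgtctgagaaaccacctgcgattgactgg
Cox6c, exons 2 and 3: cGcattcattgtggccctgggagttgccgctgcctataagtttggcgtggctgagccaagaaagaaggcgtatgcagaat
Cox6c2: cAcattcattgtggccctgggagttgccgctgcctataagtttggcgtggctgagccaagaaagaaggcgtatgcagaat

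Atp5o, the OSCP subunit that links the catalytic head to the peripheral stalk, had a mean of 1.66 normalized CPM in its own row, while Gm5436 had 289.8. Atp5h had 3.27 and Gm10250 257. Cox6c had 1.51 and Cox6c2, itself a member by its symbol, 182. Within each pair the windows, picked as the most alike, differ by at most 1 base. Over the whole pseudogene the identity was 97.0% for Gm5436, 99.0% for Gm10250 and 97.0% for Cox6c2. Where copies held no counts, as for Cox4i1 or Cox8a, the gene's own row held all of the signal found here.

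**Figure D4:**
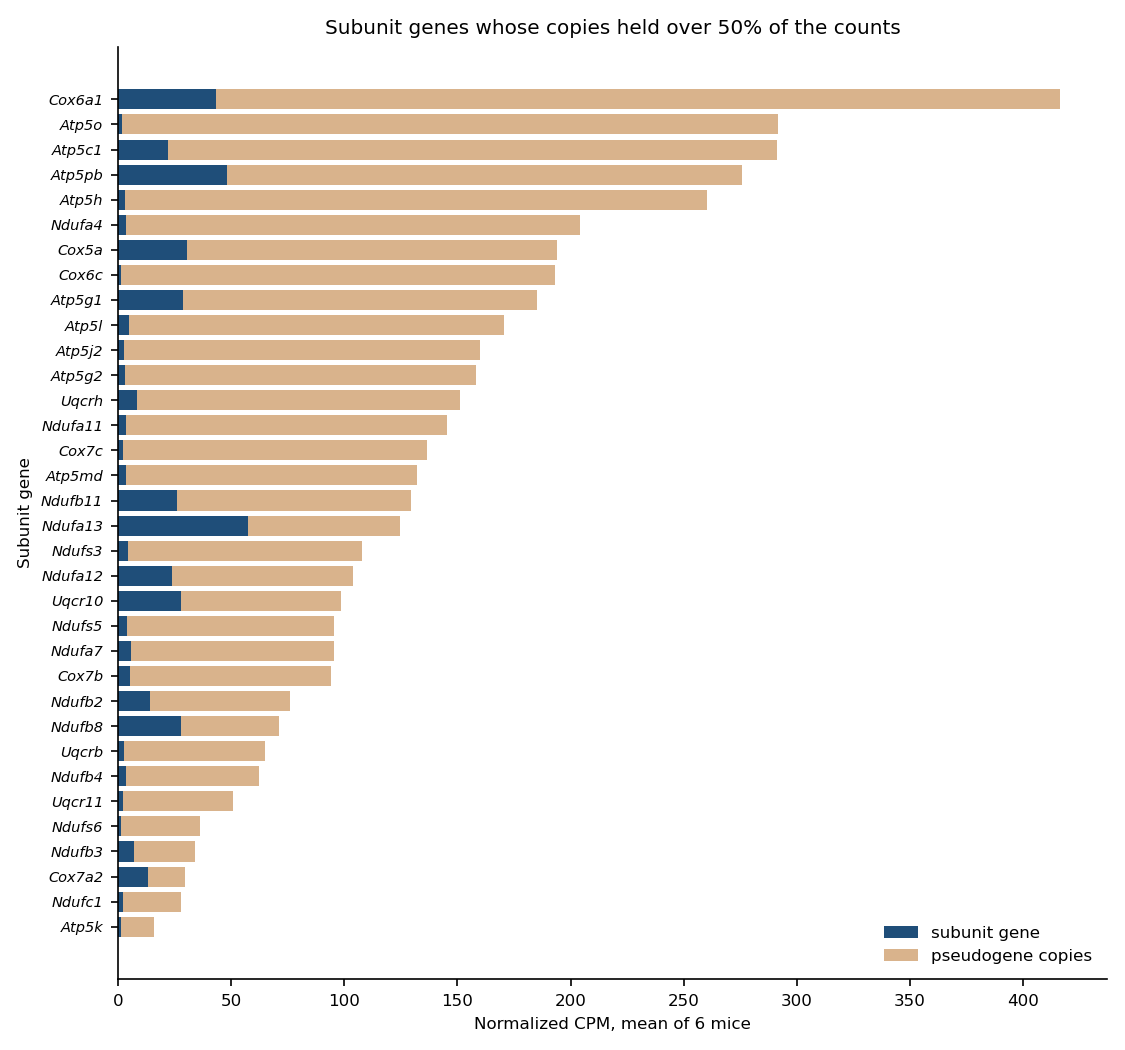
Normalized CPM, mean of the 6 mice, in the row of the subunit gene (blue) and in its annotated pseudogene copies (tan, stacked) for 34 of the 35 members whose copies held over 50% of the counts. For most of these genes the tan bar makes up nearly the whole length, with Cox6a1 at the top and Atp5k at the bottom.

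The copies were tested in the same fit as all other genes. Of the 71 tested, 52 had a Log2FC above 0, with a median of 0.20. At the thresholds above, 10 were called higher, beside the 5.10% of all genes, and 0 lower. With no limit on size, 21 had P under 0.05 with higher values in AP1AR-DT OE mice, beside 6.74% of all genes, and 0 with lower. By edgeR, 0 copies had an adjusted P under 0.05. Gm16418, a copy of Uqcr11, had the smallest P, with 30.6, 32.7 and 39.4 normalized CPM in the control mice and 55.4, 58.2 and 43.8 in the AP1AR-DT OE mice. Its Log2FC was 0.62 (SE 0.15, adjusted P = 0.295 by edgeR), and the groups did not overlap. Gm12389, a copy of Ndufa13, had 62.8, 57.1 and 52.9 normalized CPM in the control mice and 75.6, 84.8 and 71.4 in the AP1AR-DT OE mice, and its Log2FC was 0.42 (SE 0.11, adjusted P = 0.295 by edgeR). Gm10039, a copy of the c subunit gene Atp5g1, had 131, 126 and 151 normalized CPM in the control mice and 178, 196 and 156 in the AP1AR-DT OE mice, and its Log2FC was 0.38 (SE 0.12, adjusted P = 0.295 by edgeR). In all 3 the AP1AR-DT OE mice were above the control mice and OE C was the lowest of them. The largest copy, Gm50432 of Cox6a1, had 337, 266 and 355 normalized CPM in the control mice and 439, 505 and 335 in the AP1AR-DT OE mice, with overlap (Log2FC 0.42, adjusted P = 0.329).

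When the counts of each member's copies were added to its own before the fit, a step chosen after seeing the data, 71 of 81 members had a Log2FC above 0, against 57 of 82 without it. The median was 0.20, against 0.13. P was under 0.05 for 18 members, all higher in AP1AR-DT OE mice, where 6.71% of all genes were higher in that fit. Only copies of subunit genes were summed, so the other genes in that share kept any pseudogene counts apart. At the size threshold as well, 8 were called higher, beside 5.10% of all genes, and 0 lower. The 8 were Cox6b1, Uqcr11, Ndufa3, Uqcrq, Ndufb9, Ndufb2, Atp5g1 and Atp5g3. Among the 35 members whose copies held over 50% of the counts, 18 had a Log2FC above 0 alone and 32 with the copies, and the median SE was 0.23 alone and 0.11 with them.

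Uqcr11, the smallest subunit of complex III, had 42.6, 37.3 and 45.4 against 63.4, 67.3 and 50.3 normalized CPM with its copies (Log2FC 0.53, SE 0.14, adjusted P = 0.295), so that each AP1AR-DT OE mouse was above each control mouse. Atp5g1 had 164, 151 and 177 against 206, 227 and 186 normalized CPM (Log2FC 0.33, SE 0.11, adjusted P = 0.295), also without overlap. Atp5g2, another c subunit gene, had 144, 148 and 141 against 179, 175 and 162 normalized CPM (Log2FC 0.25, SE 0.081, adjusted P = 0.295), again with each AP1AR-DT OE mouse above each control mouse. All 3 genes for the c subunit then had P under 0.05, and Atp5g2 had an estimate below 0 in its own row (Log2FC -0.30, adjusted P = 0.556). Atp5o had 284, 256 and 260.0 against 309, 342 and 297 normalized CPM (Log2FC 0.24, SE 0.094, adjusted P = 0.309), without overlap. Ndufs3, a core subunit of complex I, also crossed 0, from -0.15 alone to 0.30 with its copies (adjusted P = 0.324). Of the 16 members that were below 0 alone and above 0 with copies, these 2 had P under 0.05 in the second fit. Atp5pb went from 0.11 to -0.012. The 9 other members below 0 with copies were Ndufb1, Ndufs1, Ndufs4, Ndufv2, Sdha, Uqcrb, Cox6a2, Cox6b2 and Cox7b.

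**Figure D5:**
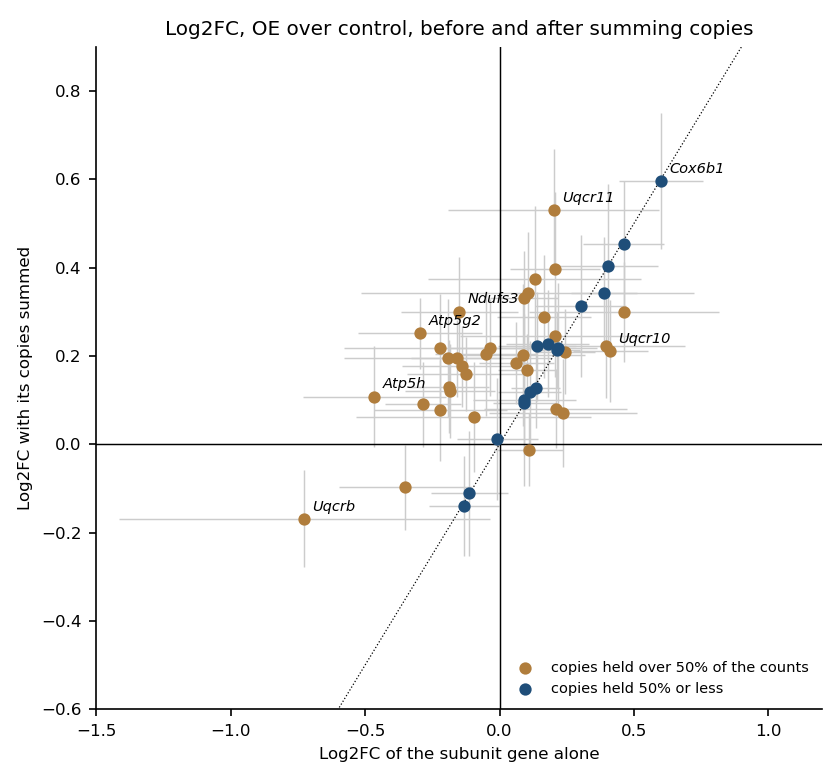
Log2FC of the subunit gene alone (horizontal axis) and with its copies summed (vertical axis, another scale) for 50 members with copies, with bars of 1 SE and a dotted line where both are equal. Cox6c, with a Log2FC of 2.64 alone, lies outside the axes. Members whose copies held over 50% of the counts (brown) spread widely along the horizontal axis and lie mostly above 0 on the vertical one.

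Summed over all members and copies, the rows held 9393, 8468 and 8978 normalized CPM in the control mice and 10321, 10923 and 9336 in the AP1AR-DT OE mice. OE C was just below control 1, so the groups overlapped, and OE A and OE B were above all control mice.

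Levels were compared between genes as normalized CPM per kb of the longest transcript. In complex IV, Cox4i1 had 399 and its isoform Cox4i2, known from lung, 1.32. Cox6a1 had 76.1 in its own row and 729 with its copy, while the heart and muscle form Cox6a2 had 3.60. Cox6b1 had 39.9 and the testis form Cox6b2 1.83. Cox7a2 had 20.2 alone and 45.0 with its copy, while the muscle form Cox7a1 had 0 counts in 5 mice and 0.111 normalized CPM in OE B. Cox8a had 229, and Cox8b and Cox8c had 0 counts in all 6 mice, where 3 counts, the limit that a count of 0 allows, would be between 0.0556 and 0.0737 normalized CPM. Cox4i2, Cox6a2 and Cox6b2 did not have P under 0.05 by edgeR.

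The 3 genes for the c subunit of ATP synthase encode the same mature protein. In their own rows they had 6.09 (Atp5g1), 4.27 (Atp5g2) and 179.7 (Atp5g3) normalized CPM per kb. With the copies, Atp5g1 had 39.3 and Atp5g2 209.9, so that Atp5g2 was above Atp5g3 on that scale and far below it without copies. The low value of Atp5g1 rests on a transcript of 4715 bases, against 753 for Atp5g2 and 723 for Atp5g3. Not divided by length, Atp5g1 was the highest of them with copies, at 164 normalized CPM in control and 206 in AP1AR-DT OE mice. The means were 144 and 172 for Atp5g2 and 114 and 146 for Atp5g3. The highest levels with copies were those of Cox6c2 (790.0, from a row of 231 bases), Cox6a1 (729), Cox4i1 (399), Atp5h (382), Atp5b (358) and Atp5o (348). Atp5h and Atp5o had 4.79 and 1.98 in their own rows. The estimates were less precise at low counts. Of the 36 members with a mean of at least 32 normalized CPM, 31 had a Log2FC above 0 and 9 had P under 0.05, with a median SE of 0.11. Of the 25 under 8, 10 were above 0 and 0 had P under 0.05 by edgeR, with a median SE of 0.35. Over all genes tested, 6.74% had P under 0.05 with higher values, a share that was not counted by level.

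Among all genes tested, Log2FC was higher in genes of higher GC content, with a median of -0.15 in those under 50% and 0.13 in the rest. Of the subunit genes under 50% GC, 24 of 38 had a Log2FC above 0 and 2 had P under 0.05, with a median Log2FC of 0.11. Of those at 50% or more, 33 of 44 were above 0 and 10 had P under 0.05, with a median of 0.16. The shares with P under 0.05 were not counted over all genes by GC content. Spearman's rho between Log2FC and GC content was 0.22 across the 82 genes, which share the libraries and are not independent replicates. After correction for GC content, 6 subunit genes were called higher (Atp5g3, Atp5pb, Cox5a, Cox6b1, Ndufa3 and Uqcrq) and 1 lower (Atp5g2), and the median Log2FC was 0.092. In that fit 2.85% of all genes were called higher and 4.34% lower.

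Of 9 genes for regulators of mitochondrial genes, 1 was called higher (11.1%) and 0 lower, beside 5.10% and 7.15% of all genes. Of the 9, 4 had a Log2FC above 0 and 5 below, with a median of -0.10. Esrra, the estrogen-related receptor alpha that binds the ERR motif, had 49.0, 39.8 and 54.6 normalized CPM in the control mice and 70.6, 70.8 and 63.2 in the AP1AR-DT OE mice, and its Log2FC was 0.51 (SE 0.13, adjusted P = 0.295 by edgeR). All 3 AP1AR-DT OE mice were above all control mice, with OE C the lowest of them. Nrf1, which encodes nuclear respiratory factor 1, had 16.7, 22.6 and 16.2 normalized CPM in the control mice and 18.2, 20.3 and 19.7 in the AP1AR-DT OE mice (Log2FC 0.065, adjusted P = 0.865). Gabpa (Log2FC -0.21, adjusted P = 0.582), Gabpb1 (Log2FC 0.041, adjusted P = 0.915) and Yy1 (Log2FC 0.035, adjusted P = 0.853) had overlapping groups. Tfam, which packages and transcribes mitochondrial DNA, had a Log2FC of -0.18 (adjusted P = 0.498). The coactivators Ppargc1a (Log2FC -0.15, adjusted P = 0.577) and Ppargc1b (Log2FC -0.10, adjusted P = 0.790) and the receptor Esrrg (Log2FC -0.14, adjusted P = 0.789) did not pass the test.

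The other lists are read beside the 5.10% of all genes called higher and the 7.15% called lower. Of 46 OXPHOS assembly factors, 2 were called higher (4.35%) and 1 lower (2.17%), both shares below those of all genes, with a median Log2FC of 0.067. The 3 genes were Ndufaf8, of complex I assembly (Log2FC 0.58, adjusted P = 0.296), Sdhaf1 (Log2FC 0.33, adjusted P = 0.296) and, lower, Sdhaf3 (Log2FC -0.40, adjusted P = 0.305), both of complex II assembly. Of 78 mitochondrial ribosomal protein genes, 8 were called higher (10.3%) and 0 lower, with a median of 0.12. They were Mrpl52 (Log2FC 0.61, adjusted P = 0.295), Mrpl14, Mrpl4, Mrps27, Mrps12, Mrpl12, Mrps26 and Mrpl15, with Log2FC from 0.32 to 1.04. Of 23 genes for protein import into mitochondria, 3 were called higher (13.04%) and 0 lower, which were Tomm40l (Log2FC 0.78, adjusted P = 0.295), Timm13 (Log2FC 0.56, adjusted P = 0.295) and Tomm6 (Log2FC 0.53, adjusted P = 0.296), parts of the outer and inner membrane import machinery.

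In the TCA cycle, 0 of 18 genes were called higher and 1 lower (5.56%), with 9 estimates on either side of 0. The gene called lower was Dld, the dihydrolipoamide dehydrogenase shared by the oxo acid dehydrogenases, with 64.6, 63.2 and 71.3 normalized CPM in the control mice and 50.7, 49.8 and 53.1 in the AP1AR-DT OE mice (Log2FC -0.37, adjusted P = 0.295). Mdh2, mitochondrial malate dehydrogenase, had a P under 0.05 with higher values in AP1AR-DT OE mice (Log2FC 0.29, adjusted P = 0.295), and Sucla2, a subunit of succinyl-CoA synthetase, with lower values (Log2FC -0.27, adjusted P = 0.304). Neither passed the size threshold. Of 18 glycolysis rows, 17 had a Log2FC above 0, with a median of 0.20. The symbol Aldoa was carried by more than 1 row, and the only estimate below 0 was that of its row with few counts. That row had means of 1.58 normalized CPM in control and 1.08 in AP1AR-DT OE mice (Log2FC -0.53). Of the 18, 1 was called higher (5.56%), the neuronal enolase Eno2. It had 805, 652 and 665 normalized CPM in the control mice and 933, 987 and 841 in the AP1AR-DT OE mice (Log2FC 0.38, adjusted P = 0.295). Pgam1 (Log2FC 0.27, adjusted P = 0.307) and Tpi1 (Log2FC 0.28, adjusted P = 0.329) had P under 0.05 by edgeR below the size threshold. Of 6 neuron markers, which summed to 2349.7 to 3009 in control mice and 2879.6 to 3466 in AP1AR-DT OE mice with none at 0, 5 had a Log2FC above 0 and 1, Rbfox3, was called higher (Log2FC 0.40, adjusted P = 0.319). Of 5 astrocyte markers, which summed to 2010.2, 1813 and 2015 normalized CPM in control mice and 1703, 1755 and 1722 in AP1AR-DT OE mice, 5 had a Log2FC below 0 and 1, Aqp4, was called lower (Log2FC -0.60, adjusted P = 0.323). Of 5 endothelial markers, which summed to 59.4, 58.2 and 68.8 normalized CPM in control mice and 76.8, 103 and 72.4 in AP1AR-DT OE mice, 4 had a Log2FC above 0 and 1, Cldn5, was called higher (Log2FC 0.77, adjusted P = 0.295). No marker of either list was at 0 in any mouse, and the sums of the groups did not overlap in these 2 lists. Of the markers tested, 3 of 4 of choroid plexus, 4 of 5 of hypothalamus, 2 of 4 of thalamus and 1 of 5 of oligodendrocytes were called lower. The thalamic list summed to 639 in control 3 and to between 115 and 207 in the other mice. Called higher were 1 of 5 microglial and 1 of 4 parvalbumin interneuron markers. No striatal, erythrocyte or muscle marker was called. The part of these cell types and regions in the subunit gene values was not tested.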

How the data were processed

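RNA-seq of 3 control and 3 AP1AR-DT OE mouse brains was read from 1 deposited table. Per the methods, the authors used FastQC for read quality, aligned to GRCm38 by Bowtie2 and derived whole-number counts per gene from StringTie with GENCODE annotation. The name under which the counts were deposited also gives Bowtie2, StringTie and DESeq2. The submitters' processing notes instead name TopHat2 2.0.4, HTSeq, Cuffdiff, edgeR 2.6.12 and mm9, in conflict with both the methods and that name. The deposited table also holds the authors' mean signal per gene, log2 fold changes, test score and p-values from DESeq2, which were not used. Totals were 42061721 to 54668294 counts per mouse.

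Counts were filtered with filterByExpr, scaled by TMM and tested with edgeR 4.0.16's quasi-likelihood test (two-sided, no covariates) in R 4.3.3, with Benjamini-Hochberg adjustment over all 21844 genes. P-values rest on the spread between mice. The thresholds were P under 0.05 and |Log2FC| above 0.32. Adjusted P came from the same fit. Alternatives were DESeq2 1.42.0, DESeq2 size factors in edgeR, no TMM, limma-voom (limma 3.58.1), no filter, a minimum of 10 counts in each mouse, GC content or transcript length corrected, the mt- genes left out, each mouse left out and, added after seeing the data, copies summed. The scripts were tested on simulated data. Copies were found with BLAST 2.17.0 among annotated pseudogenes of GENCODE M21. Promoters were from RefSeq. Genome coordinates in the deposited table were not used, as they did not match GRCm38.

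Named were subunit genes with P under 0.05, the highest and lowest Log2FC of each complex, catalytic core members, tissue isoforms and regulators, and in other lists the genes called or the 3 of smallest P. For 1 gene that the rule would name, no value is reported here, and it stays in the counts. Members and lists were chosen with earlier results of these data known.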

Additional observations from a re-analysis of the deposited data

How the results depend on the processing

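The number of subunit genes called higher ranged from 2 to 18, and that called lower from 0 to 1, when each mouse was left out in turn, and the median Log2FC ranged from 0.086 to 0.20. When 1 mouse is left out, a group of 2 is left, and edgeR estimates the spread from all 5 mice. The higher count was 2 without OE B, 3 without control 2, 11 without control 3 and 18 without OE C. In the same order, 2.63%, 4.42%, 5.64% and 7.20% of all genes were called higher. The number called lower was 1 after correction for GC content and 1 after correction for transcript length, against 0. The gene was Atp5g2 in the first and Ndufb3 in the second. In these fits 4.34% and 6.91% of all genes were called lower. With copies summed, an alternative chosen after seeing the data, Log2FC reversed in sign for Atp5g2 (to 0.25) and Ndufs3 (to 0.30), both then with P under 0.05 by edgeR, for which the cause was not tested.

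The 12 genes with P under 0.05 gave 108 values over the 9 planned settings that kept all mice, of which 98 kept P under 0.05, 10 lost it and 0 reversed. Of the 10, 7 were lost after correction for GC content. Leaving out a mouse gave 72 values, of which 38 kept it and 34 lost it. With copies summed 11 of the 12 kept it. No paired analysis was possible because the groups' labels share too few replicate numbers and the AP1AR-DT OE columns do not say which mouse they are. Subunit genes under 8 normalized CPM had a median SE of 0.35, and for the 35 members whose copies held over 50% of the counts the median SE was 0.23 alone and 0.11 with copies summed, at the same depth.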
